A study of Mus musculus with 2 samples.

Results

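Of the 12756 cell barcodes in the deposited matrix of mouse duodenal crypts, 157 were Lgr5 cells with at most 1 transcript of the proliferation genes Mki67 and Top2a. They were chosen by measured values. A barcode had to hold at least 500 genes and 5000 UMIs (unique molecular identifiers, each counting 1 captured transcript), with at most 25% of them from mitochondrial genes. It also needed at least 1 UMI of Lgr5 and at least 0.3% of its UMIs from Olfm4. Lyz1 and Defa24 together had to stay under 2% of UMIs, Chga and Chgb together under 5 UMIs, and Mki67 and Top2a together at or under 1 UMI. The first 3 limits kept 5557 barcodes, so the 157 cells were 2.83% of the kept barcodes (exact binomial 95% interval 2.41 to 3.30%). They are called Mki67-low Lgr5 cells below, after the rule.

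The study bears the title of chronic stress and intestinal stem cell ageing. Single-cell libraries, labelled as 10x Chromium 3′, were made of 2 groups of wild-type mice, ES and NT, whose letters are not spelled out in the sources used here. Crypts of 5 animals were pooled in each group, so that each group is 1 sample with no replicate. The barcodes end in suffix 1 or 2, and no source used here ties a suffix to ES or NT. The suffixes are therefore given side by side as 2 libraries, with no direction between ES and NT and no test.

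Lgr5, the receptor for R-spondins, and Olfm4, a secreted glycoprotein, mark the crypt base columnar stem cells that renew the epithelium of the small intestine. These cells lie between Paneth cells, which supply Wnt and Notch signals, and most of them divide often. Lgr5 cells that are not dividing are known as well, and some of them are precursors of secretory cells. Mki67 and Top2a transcripts build up in G2 and mitosis and are low in early G1 and in cells that have left the cycle, so few UMIs of both genes can mark either state.

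The Mki67-low Lgr5 cells held between 5078 and 24092 UMIs, with a median of 9793. Their median was 9784.5 UMIs in the 68 cells of suffix 2 and 9844 UMIs in the 89 cells of suffix 1. They made up 2.43% (1.90 to 3.08%) of the 2793 kept barcodes of suffix 2 and 3.22% (2.59 to 3.95%) of the 2764 of suffix 1. The intervals of the 2 shares overlap. Mitochondrial genes took 9.67% of the UMIs at the median. All barcodes together held 54877667 UMIs in suffix 2 and 54316199 UMIs in suffix 1. Barcodes are 27 bases long, which is longer than the labelled kit is known to give, so the platform is uncertain. The same barcode sequence occurred with both suffixes for 40 sequences, and 1 of the 157 cells carried such a sequence.

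The values that chose the cells are a description. Lgr5 had 1 UMI in 35 of the 157 cells, 2 UMIs in 25 and at least 4 UMIs in 73, with a median of 3 and a maximum of 17. Olfm4 took between 0.358% and 2.68% of the UMIs. The nearest barcode that failed for Olfm4 alone had 0.288%. Mki67 and Top2a were both at 0 in 88 cells, and 69 cells had 1 UMI of either. The cell cycle limit alone kept out 544 barcodes, the Mki67-high Lgr5 cells, which had at least 2 UMIs of the same genes. The Lgr5 limit alone kept out 78 barcodes that passed the same Olfm4 limit and had no Lgr5 UMI, the Lgr5-zero cells. On the other limits, the nearest cells inside and outside stood at 1.39% and 2.85% for the Paneth genes and at 21.2% and 25.9% for mitochondrial UMIs. A further 30 barcodes failed only for having fewer than 5000 UMIs.

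The stem cell side of the name was borne out by markers that the rule did not use. Levels per cell were compared after each cell had been thinned at random to 5000 UMIs. Smoc2, which encodes a matricellular protein of the crypt base, had a UMI in 83.4% of Mki67-low Lgr5 cells, in 72.6% of Mki67-high Lgr5 cells, in 65.4% of Lgr5-zero cells and in 31.9% of the 5400 other kept barcodes. Igfbp4, a secreted binding protein for insulin-like growth factors, was found in 67.5%, 57.9%, 37.2% and 15.4% of the same classes. Ascl2, the transcription factor that maintains the Lgr5 state, was found in 45.9%, 41.9%, 28.2% and 10.6%. For each of the 3 genes the Mki67-low Lgr5 cells had the highest share and the other barcodes the lowest. The background from free RNA was read in 199 lymphocytes of the same libraries (median 2842 UMIs), with all cells thinned to 2000 UMIs. There Smoc2 had a UMI in 47.1% of Mki67-low Lgr5 cells and 1.01% of lymphocytes, Igfbp4 in 47.1% and 2.01% and Ascl2 in 24.2% and 1.01%. The rule genes Lgr5 and Olfm4, required of the Mki67-low cells, had a UMI in 0.503% and 20.1% of lymphocytes.

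**Figure D1:**
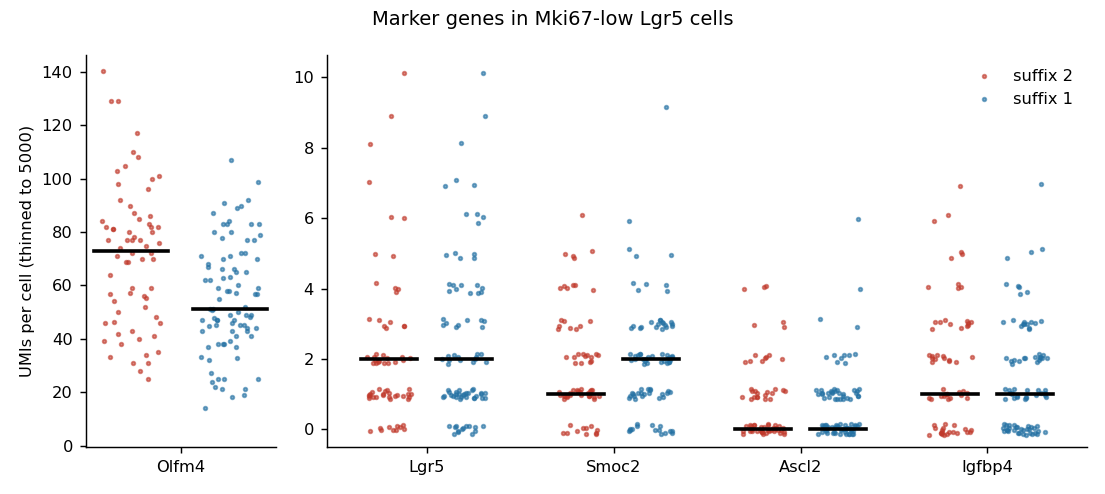
UMIs per cell of the 5 marker genes in the 157 Mki67-low Lgr5 cells, each cell thinned to 5000 UMIs and drawn as a point (jittered), with suffix 2 left of suffix 1 and a bar at the median. Olfm4 had a median of 73 UMIs in suffix 2 and 51 UMIs in suffix 1, and the points of the 2 suffixes overlap for all 5 genes.

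Transcripts of both cell cycle lists were lower in Mki67-low than in Mki67-high Lgr5 cells, far more so for mitosis than for DNA replication. A list of 30 G2 and mitosis genes, which leaves out Mki67 and Top2a, had a median of 3 UMIs per thinned cell and a maximum of 11 in Mki67-low Lgr5 cells. In Mki67-high Lgr5 cells its median was 16 UMIs and its maximum 75. None of the 157 cells reached 16 UMIs, and 98 (62.4%) reached 3 UMIs, the 10th percentile of the Mki67-high cells. A list of 30 DNA replication and S phase genes overlapped more, with a median of 8 UMIs (range 0 to 34) in Mki67-low Lgr5 cells and 11 UMIs in Mki67-high Lgr5 cells. On that list 64 of the 157 cells (40.8%) reached the Mki67-high median of 11 UMIs, against 290 of 544 Mki67-high Lgr5 cells (53.3%). Only 3 cells had no UMI of the replication list. The values therefore do not show that all of these cells were outside the cycle, since 64 of them reached the median of the Mki67-high cells. The sum does not place a cell in S phase either. The list also holds subunits of the replicative helicase, which are loaded in G1. Which genes made up the sum in the 64 cells was not tested.

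**Figure D2:**
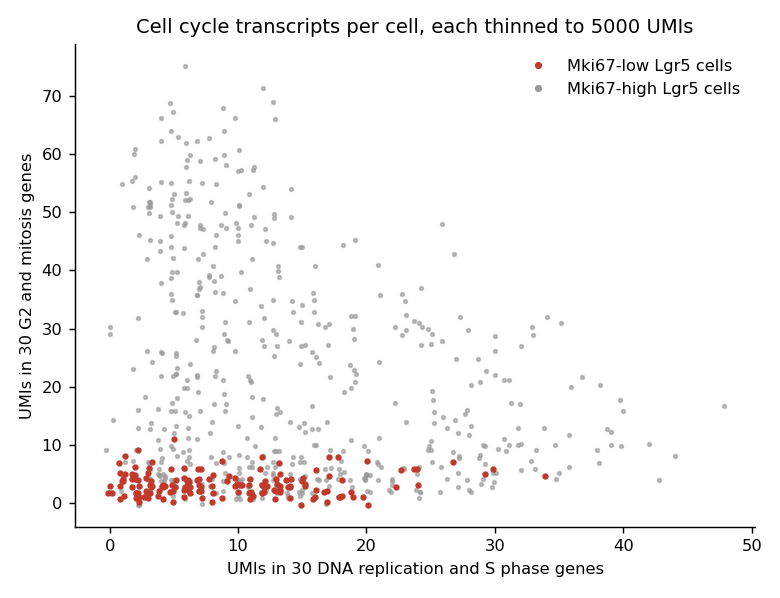
UMIs in 30 DNA replication and S phase genes (horizontal axis) and in 30 G2 and mitosis genes (vertical axis) per cell, each cell thinned to 5000 UMIs and drawn as a jittered point, for 157 Mki67-low and 544 Mki67-high Lgr5 cells. The Mki67-low cells lie at or under 11 UMIs on the vertical axis and spread from 0 to 34 UMIs along the horizontal one.

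Levels were then compared with the 544 Mki67-high Lgr5 cells, as CPM, the UMIs of a gene scaled to a fixed total in the summed UMIs of each class. A gene is called apart here when its levels differed at least 1.5 times, up or down, and the exact Poisson 95% interval of the ratio left out 1. The interval covers counting error only and says nothing of the spread between animals. Among the 8826 genes with at least 100 UMIs, 324 (3.67%) were apart with higher levels in Mki67-low Lgr5 cells and 563 (6.38%) with lower levels. Of these, 91 and 329 genes were apart in the same direction in both suffixes. The rule itself set the contrast, so these shares are a description, and the Mki67-high cells were deeper, with a median of 15260 UMIs. Within cells of 5000 to 15000 UMIs, 6557 genes had at least 100 UMIs, with 154 apart higher and 311 lower. Only 102 of the 324 higher genes and 261 of the 563 lower ones were apart there too.

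Genes with higher levels in Mki67-low Lgr5 cells included transporters, a MYC antagonist and a meiotic cohesin. Slc1a2, a glutamate transporter (mm10 chr2:102658659-102790784, plus strand), had 32.2 CPM in Mki67-low and 7.12 CPM in Mki67-high cells of suffix 2, and 39.6 CPM in Mki67-low and 14.5 CPM in Mki67-high cells of suffix 1. Both suffixes thus showed the same direction, and the pooled ratio was 3.21 (2.29 to 4.47). Rec8, a cohesin subunit known from meiosis (chr14:55618037-55625395, plus strand), had 90.9 CPM in Mki67-low and 28.2 CPM in Mki67-high cells of suffix 2, and 41.8 CPM in Mki67-low and 18.2 CPM in Mki67-high cells of suffix 1. Its pooled ratio was 2.82 (2.20 to 3.59). Lbh, a transcriptional cofactor known as a Wnt target in the mammary gland (chr17:72918305-72941947, plus strand), had 168 CPM in Mki67-low and 48.6 CPM in Mki67-high cells of suffix 2, and 122 CPM in Mki67-low and 60.9 CPM in Mki67-high cells of suffix 1. Lbh was again higher in both suffixes, with a pooled ratio of 2.56 (2.18 to 2.997). Among cells of 5000 to 15000 UMIs the ratios of the 3 genes were 2.29, 2.55 and 1.94, in the same order.

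Mxd4, a MAX partner that opposes MYC, had 67.8 CPM in Mki67-low and 29.4 CPM in Mki67-high Lgr5 cells, a ratio of 2.30 (1.83 to 2.88). Trp53inp1, a p53-induced gene linked to autophagy and cell death, had 45.6 CPM in Mki67-low and 15.6 CPM in Mki67-high cells, a ratio of 2.92 (2.18 to 3.90). Both genes were apart in each suffix. The zinc transporter Slc30a2 had a ratio of 2.62, the phosphatase gene Ppm1l 2.77, the calcium channel gene Itpr2 2.63 and the zinc finger gene Zbtb37 2.97, at levels between 21.6 and 43.7 CPM in Mki67-low cells. Pdgfa, the ligand of a platelet-derived growth factor receptor, had 232 CPM in Mki67-low and 119 CPM in Mki67-high cells, a ratio of 1.94 (1.72 to 2.18). The ratio of Pdgfa was 1.37 among cells of 5000 to 15000 UMIs.

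All 24 genes of the crypt base stem cell list had a ratio above 1, and 5 of them were apart (Lgr5, Igfbp4, Rgmb, Sox9 and Soat1). Lgr5 and Olfm4 are rule genes, and of the other 22 genes 4 were apart. The list's median was 0.46 on the log2 scale, beside 0.01 over all genes with at least 20 UMIs, of which 4.65% were apart with higher levels. Lgr5 had 438 CPM in Mki67-low and 223 CPM in Mki67-high Lgr5 cells, a ratio of 1.96 (1.80 to 2.14). Since 1 UMI of Lgr5 was required, a shallow cell had to hold a larger share of it, and the ratio was 1.44 among cells of 5000 to 15000 UMIs. Igfbp4 had 318 CPM in Mki67-low and 189 CPM in Mki67-high cells, a ratio of 1.69 (1.52 to 1.86). Soat1, which esterifies cholesterol, had 490 CPM in Mki67-low and 298 CPM in Mki67-high cells, a ratio of 1.64 (1.52 to 1.78). Rgmb, a co-receptor for bone morphogenetic proteins, had a ratio of 1.56, and Sox9, a transcription factor of the crypt base, a ratio of 1.52. At 5000 to 15000 UMIs the ratios of Igfbp4, Soat1, Rgmb and Sox9 were 1.42, 1.36, 1.20 and 1.37, all under 1.5, and the list's median was 0.26, so that none of the 5 calls held at that depth. Ascl2, at 1.08 (0.942 to 1.25), and Smoc2, at 1.31 (1.19 to 1.43), were not apart in all cells either.

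Of the 21 genes of R-spondin receptors and Wnt feedback that were measured, 3 (Lgr5, Nkd1 and Sp5) were apart with higher levels. None was apart with lower levels, and the median was 0.27. Of all genes with at least 20 UMIs, 4.65% were apart with higher levels. Lgr5 is a rule gene, and without it 2 of 20 genes were apart, with a median of 0.25. Nkd1, a Wnt-induced inhibitor of the pathway, had 22.8 CPM in Mki67-low and 6.37 CPM in Mki67-high Lgr5 cells, a ratio of 3.58 (2.30 to 5.50). Sp5, a transcription factor induced by Wnt, had 51.1 CPM in Mki67-low and 29.9 CPM in Mki67-high cells. Among cells of 5000 to 15000 UMIs Lgr5 and Sp5 (1.49) were under 1.5, and the list's median was 0.11. Of 12 measured reserve stem cell markers 9 had a ratio above 1, with a median of 0.20. Fgfbp1, a growth factor binding protein gene, was apart with lower levels, at 0.535. Hopx stood at 1.19, Bmi1 at 1.12, Mex3a at 1.31 and Tert at 0.863, which rested on 6 UMIs in Mki67-low cells and 39 UMIs in Mki67-high cells. None of these 4 genes was apart. Sox9 and Dclk1 were apart with higher levels. Dclk1 stood at 5.77, and 31 of its 35 UMIs in Mki67-low cells came from 1 cell.

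**Figure D3:**
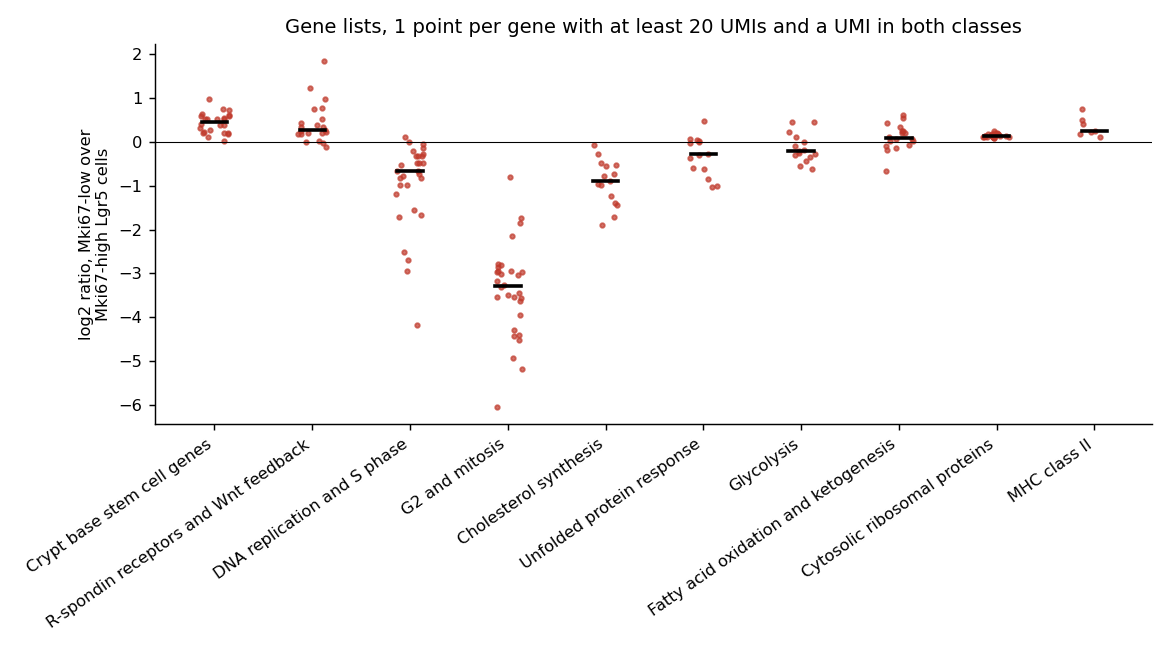
Log2 ratio of CPM, Mki67-low over Mki67-high Lgr5 cells, for 10 gene lists, 1 point per gene (jittered) and a bar at the median of the points drawn. The G2 and mitosis list lies lowest, the replication and cholesterol synthesis lists lie below 0, and the stem cell and ribosomal protein genes lie above 0.

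Transcripts of mitosis were lower in Mki67-low Lgr5 cells for all 30 genes of the G2 and mitosis list, beside 5.72% of all genes with at least 20 UMIs, with a median log2 ratio of -3.28. Mki67 and Top2a belong to the same program, so the rule comes close to setting this direction. Esco2, which establishes sister chromatid cohesion, had 0 UMIs in the 157 Mki67-low cells and 664 UMIs in the 544 Mki67-high cells. Kif14, a mitotic kinesin, had 0 and 220 UMIs in the same order. Hmmr, a spindle protein, had 3 and 1110 UMIs, and the spindle gene Aspm had 3 and 611 UMIs. These are raw UMIs, out of 1623415 UMIs in Mki67-low and 9104027 UMIs in Mki67-high cells. Ccna2, the S and G2 cyclin, was less extreme at 19.1 CPM in Mki67-low and 285 CPM in Mki67-high cells, a ratio of 0.0669 (0.0454 to 0.0952). Cdk1, the mitotic kinase, had 22.2 CPM in Mki67-low and 170 CPM in Mki67-high cells. Nusap1, Tpx2, Knl1, Kif11 and Pbk, all with roles in mitosis, had between 3.08 and 8.01 CPM in Mki67-low cells and between 88.5 and 188 CPM in Mki67-high cells.

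The replication genes were lower to very different degrees. Of 29 measured genes, 28 had a ratio under 1, and the median was -0.68. Apart with lower levels were 16 genes, beside 5.72% of all genes with at least 20 UMIs. Subunits of the replicative helicase that are loaded in G1 stood nearly level. Mcm2 had 90.5 CPM in Mki67-low and 91.4 CPM in Mki67-high Lgr5 cells, a ratio of 0.991 (0.826 to 1.18), and Mcm6 had 206 CPM in Mki67-low and 213 CPM in Mki67-high cells, a ratio of 0.970 (0.862 to 1.09). Pcna, the sliding clamp of the replication fork, was lower at 216 CPM in Mki67-low and 343 CPM in Mki67-high cells, a ratio of 0.630 (0.563 to 0.704) that was 0.702 among cells of 5000 to 15000 UMIs. At that depth 15 of the 16 genes stayed past 1.5-fold. Enzymes of nucleotide supply were lower still. Tyms, thymidylate synthase, had 33.9 CPM in Mki67-low and 107 CPM in Mki67-high cells, and Rrm2, a subunit of ribonucleotide reductase, had 11.7 CPM in Mki67-low and 90.6 CPM in Mki67-high cells. The G1 cyclins stood near level, with Ccnd1 at a ratio of 1.14 and Ccnd2 at 1.03.

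Inhibitors of cyclin-dependent kinases, which hold cells in G1 or G0, were listed together with genes of G0. Of 23 measured genes of that list none was apart with higher levels, beside 4.65% of all genes, and 2 were apart with lower levels, beside 5.72%. Those were Cdkn2c, with 4.93 CPM in Mki67-low and 19.1 CPM in Mki67-high Lgr5 cells, and Cdkn2d, with 3.08 CPM in Mki67-low and 9.56 CPM in Mki67-high cells. Cdkn1a, the p53-induced inhibitor p21, had 17.9 CPM in Mki67-low and 24.3 CPM in Mki67-high cells, a ratio of 0.736 (0.482 to 1.09). Cdkn1b, the inhibitor p27, stood at 0.808. In the list of 18 measured p53 and senescence genes, Trp53inp1 and the kinase Plk2 (1.81) were apart with higher levels, beside 4.65% of all genes. The list's median was 0.08. It was -0.02 among cells of 5000 to 15000 UMIs and -0.05 when the rule was applied after thinning. Only Lmnb1, which encodes lamin B1, was apart with lower levels, near the 5.72% of all genes. Lmnb1 had 103 CPM in Mki67-low and 234 CPM in Mki67-high cells. Lmnb1 also follows the cell cycle, and 0.440 was its ratio.

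Cholesterol synthesis was lower in Mki67-low Lgr5 cells across the pathway. Of 15 measured genes 8 were apart with lower levels, beside 5.72% of all genes with at least 20 UMIs. All 15 genes had a ratio under 1, with a median of -0.90. Their summed level was 365 CPM in Mki67-low and 639 CPM in Mki67-high cells. Hmgcs1, which makes HMG-CoA, had 33.6 CPM in Mki67-low and 75.8 CPM in Mki67-high cells of suffix 2, and 42.9 CPM in Mki67-low and 70.2 CPM in Mki67-high cells of suffix 1. The 2 suffixes did not overlap between classes for Hmgcs1, and the pooled ratio was 0.534 (0.406 to 0.693). Sqle, squalene epoxidase, had 17.9 CPM in Mki67-low and 48.2 CPM in Mki67-high cells, a ratio of 0.370 (0.245 to 0.540). Insig1, which restrains the pathway when sterol is plentiful, stood at 0.383. The list's median was -0.65 among cells of 5000 to 15000 UMIs and -0.45 when the rule was applied after thinning. All 8 genes stayed past 1.5-fold in the depth range and 7 of 8 under the thinned rule.

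The promoter of Hmgcs1 is shown because it alone, of 10 genes of the list with a promoter in the RefSeq table, held the letters of a sterol regulatory element (TCACNCCAC, searched on both strands). The same letters were in 1.04% of all 27025 promoters. The 250 bases before the start of Hmgcs1 (GRCm38.p6, chr13:119690101-119690350, plus strand, sequence from RefSeq) carry them in capitals, 137 to 129 bases before the start. A match of letters is a description and not a bound site.
Hmgcs1: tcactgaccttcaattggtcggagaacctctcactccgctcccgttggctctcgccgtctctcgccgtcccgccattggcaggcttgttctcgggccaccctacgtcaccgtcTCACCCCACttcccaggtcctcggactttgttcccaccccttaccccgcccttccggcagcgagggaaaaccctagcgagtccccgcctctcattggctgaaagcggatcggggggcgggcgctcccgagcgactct

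Some chaperones of the endoplasmic reticulum were lower too. Of 14 measured genes of the unfolded protein response, 4 were apart with lower levels, beside 5.72% of genes with at least 20 UMIs. The median was -0.29. Hsp90b1, the chaperone GRP94, had 474 CPM in Mki67-low and 851 CPM in Mki67-high Lgr5 cells, a ratio of 0.557 (0.516 to 0.5996). Hspa5, the chaperone BiP, had 447 CPM in Mki67-low and 672 CPM in Mki67-high cells, a ratio of 0.665. Manf and Sdf2l1, which act beside them, stood at 0.646 and 0.492. Only Hsp90b1, at 0.616, stayed past 1.5-fold among cells of 5000 to 15000 UMIs, where Hspa5 was 0.719, Manf 0.707 and Sdf2l1 0.693. Of 12 measured secretory lineage factors, 4 were apart with lower levels, beside 5.72% of genes with at least 20 UMIs. Foxa3 alone was apart with higher levels, at 1.58, beside 4.65% of genes. Creb3l1 was apart with lower levels at 0.580 and was not past 1.5-fold at matched depth. The enteroendocrine factors Neurog3, Insm1 and Neurod1 had 0, 3 and 3 UMIs in Mki67-low cells and 31, 87 and 71 UMIs in Mki67-high cells. These are raw UMIs, out of 1623415 UMIs in Mki67-low and 9104027 UMIs in Mki67-high cells. A limit on Chga and Chgb was part of the rule for both classes.

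Most other lists stood level between Mki67-low and Mki67-high Lgr5 cells. No gene was apart among 13 of Notch signalling, 16 absorptive lineage factors, 21 of BMP, EGF and Eph signalling, 24 immediate early genes, 12 glucocorticoid-induced genes and 19 of ribosome biogenesis. Other lists held a few genes apart, beside 4.65% of all genes higher and 5.72% lower. Lower were the chaperone genes Hspa1b and Hsf1 and the Schlafen gene Slfn9, at 0.531, 0.602 and 0.471 among cells of 5000 to 15000 UMIs. Under the thinned rule Hsf1 (0.859) and Slfn9 (0.694) were not past 1.5-fold. Higher were 2 interferon response and 2 MHC class I genes, with Gbp7 at 2.13 and H2-T23 at 1.72 in that depth range. All 24 cytosolic ribosomal protein genes had a ratio above 1, with a median of 0.13 and none apart. Ribosomal protein genes have many near-identical pseudogenes, so their counts are uncertain. The 7 measured MHC class II genes all stood above 1 without being apart, with a median of 0.24. In glycolysis 1 of 15 measured genes, Pgk1, was apart, near the 5.72% of all genes, with a ratio of 0.648 that was 0.817 among cells of 5000 to 15000 UMIs.

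The 78 Lgr5-zero cells passed the same Olfm4 and cell cycle limits as the Mki67-low Lgr5 cells and differ from them by rule only in Lgr5. The 2 classes were not matched on Olfm4 level. Per thinned cell the Olfm4 median was 34.5 UMIs in Lgr5-zero cells and 59 UMIs in Mki67-low Lgr5 cells. The Lgr5-zero cells had a median of 10509 UMIs in total, near that of the Mki67-low Lgr5 cells. Of 4591 genes with at least 100 UMIs, 277 (6.03%) were apart with higher levels in Mki67-low Lgr5 cells and 99 (2.16%) with lower levels. Lgr5 was at 0 in the Lgr5-zero cells by rule and Olfm4 was a rule gene too. Of the other 22 stem cell genes, 15 were apart with higher levels and all 22 had a ratio above 1. Their median was 0.78, beside 5.91% of genes with at least 20 UMIs apart with higher levels and a median of 0.03 over them.

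Cyp2e1, a cytochrome P450 of ethanol metabolism (chr7:140763739-140774987, plus strand), had 74.5 CPM in Mki67-low Lgr5 cells and 13.4 CPM in Lgr5-zero cells, a ratio of 5.55 (3.06 to 11.0). The secreted protein Fstl1 had 56.7 CPM in Mki67-low Lgr5 cells and 11.2 CPM in Lgr5-zero cells. Lbh had 142 CPM in Mki67-low Lgr5 cells and 35.8 CPM in Lgr5-zero cells, so that Lbh was higher against both neighbouring classes. Rgmb stood at 3.18 (2.48 to 4.12), Gkn3, a gastrokine, at 3.04, Sesn3, a sestrin that restrains mTORC1, at 3.58, and Slc14a1, a urea transporter, at 3.43. Igfbp4 had 318 CPM in Mki67-low Lgr5 cells and 123 CPM in Lgr5-zero cells, a ratio of 2.58 (2.098 to 3.20). Ccn1, a secreted matrix protein and target of YAP, had 152 CPM in Mki67-low Lgr5 cells and 50.4 CPM in Lgr5-zero cells. Gm6999 stood at 3.98, but this long noncoding RNA gene (chr14:79836712-80006326) overlaps Olfm4 (chr14:79984081-80023139) on the same strand, so its UMIs cannot be told from those of Olfm4.

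Some Wnt genes were higher in the same comparison. Of 18 measured Wnt genes other than Lgr5, 7 were apart with higher levels, beside 5.91% of genes with at least 20 UMIs, with a median of 0.44. Axin2, a feedback inhibitor of Wnt signalling, had 300 CPM in Mki67-low Lgr5 cells and 161 CPM in Lgr5-zero cells. Of 12 measured Notch genes 2 were apart with higher levels, beside the same 5.91%, with a median of 0.52. Those were the receptor gene Notch1 with 67.8 CPM in Mki67-low Lgr5 cells and 42.5 CPM in Lgr5-zero cells, and the ligand gene Dll1 with 40.7 and 20.1 CPM in the same order. Cholesterol synthesis was lower here as well, with 5 of 14 measured genes apart, beside 2.75% of genes with at least 20 UMIs, and a median of -0.46. Dmbt1, a mucosal scavenger glycoprotein, had 723 CPM in Mki67-low Lgr5 cells and 1967 CPM in Lgr5-zero cells, a ratio of 0.368 (0.341 to 0.396). The chemokine Ccl6 stood at 0.340, the adhesion molecule L1cam at 0.359 and the protease Ctsc at 0.411. Goblet cell markers moved with this contrast. Of 8 measured, 5 were apart with lower levels, beside the same 2.75% of genes with at least 20 UMIs. The list's median was -0.63, with a sum of 1527 CPM in Mki67-low Lgr5 cells and 2315 CPM in Lgr5-zero cells. Without the cells above a marker share of another type none was apart and the median was -0.10. Without those cells 263 of 4350 genes with at least 100 UMIs were apart with higher and 88 with lower levels. Of the 277 and 99 genes above, 234 and 69 were among these. With the rule genes included, 17 of 24 stem cell genes and 9 of 19 Wnt genes were then apart with higher levels. So were 2 of 11 Notch genes, and 6 of 14 cholesterol synthesis genes were apart with lower levels. Agr2, a disulfide isomerase of mucin-making cells, stood at 0.509, and at 1.48 with Olfm4 at or above 0.6% of UMIs in both classes.

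The other 5400 kept barcodes hold all crypt cell types, with the Mki67-high Lgr5 cells and the Lgr5-zero cells among them. Against these barcodes, 2073 of 11797 genes with at least 100 UMIs (17.6%) were apart with higher levels and 1616 (13.7%) with lower levels. The 24 stem cell genes were all apart with higher levels, with a median of 2.11. Lgr5 and Olfm4 are among the 24, and their direction was set by the rule, which required them of the Mki67-low cells. Over all genes with at least 20 UMIs the median was 0.16, and 15.8% were apart with higher and 11.5% with lower levels. Among genes outside the rule, Slc1a2 had 36.3 CPM in Mki67-low Lgr5 cells and 2.07 CPM in other barcodes, a ratio of 17.5 (12.8 to 23.6). Cyp2e1 stood at 11.3, Fstl1 at 12.2, the adenosine receptor gene Adora1 at 9.21, Tnfrsf19, a receptor of the tumour necrosis factor family, at 8.79, and the microtubule protein gene Nav1 at 7.12. Igfbp4 had 318 CPM in Mki67-low Lgr5 cells and 43.5 CPM in other barcodes. Soat1 had 490 CPM in Mki67-low Lgr5 cells and 75.6 CPM in other barcodes, while 14 of 16 measured cholesterol synthesis genes were apart with lower levels. Mcm2, Mcm3, Mcm4, Mcm6, Mcm7, Cdt1 and Ung were apart with higher levels among 29 replication genes, and 6 others with lower levels. The sucrase gene Sis, the goblet cell gene Clca1 and the Paneth cell gene Mptx2 were lower, with 30.2, 39.4 and 31.4 CPM in Mki67-low Lgr5 cells and 723, 661 and 507 CPM in other barcodes.

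MHC class II and adrenergic receptor genes were part of that contrast. All 7 MHC class II genes, which present antigen, were apart with higher levels in Mki67-low Lgr5 cells than in other barcodes, with a median of 1.31. Against Mki67-high Lgr5 cells none of them was apart, and their median was 0.07 among cells of 5000 to 15000 UMIs. In the contrast with other barcodes Cd74, the invariant chain, had 372 CPM in Mki67-low Lgr5 cells and 150 CPM in other barcodes. H2-Aa had 61.6 and 20.9 CPM and H2-Ab1 193 and 94.99 CPM in the same order. Lymphocyte markers took at most 0.0508% of the UMIs of a Mki67-low Lgr5 cell, and 9 of 11 B, plasma and myeloid cell markers were at 0 in all 157 cells. Adra2a, an alpha-2 adrenergic receptor gene, had 91.8 CPM in Mki67-low Lgr5 cells and 26.9 CPM in other barcodes. These values do not compare Adra2a with the Mki67-high Lgr5 cells alone.

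The 157 cells were not uniform. Of genes with a mean of at least 0.1 UMI in thinned cells, the 15 with the highest ratio of variance to mean included Kctd12 (14.4), Dclk1 (13.6), Atp2a3 (13.3) and Sh2d6 (9.91). These 4 are genes of tuft cells, the chemosensory cells of the gut. A cell of suffix 1 with 10610 UMIs held 42 of Sh2d6 and 31 of Dclk1, the most of any of the 157 cells, and 1 UMI of Lgr5. Another set was goblet and Paneth cell genes, with Spink4 at 12.3, Defa17 at 10.7, Tff3 at 10.2 and Reg4 at 6.07. Mitochondrial genes were among the 15 too, with mt-Co1 at 13.3, mt-Cytb at 12.8, mt-Nd1 at 8.71 and mt-Nd2 at 7.63, and their share also follows cell quality. Olfm4 itself stood at 9.70, close to its 9.48 in Mki67-high Lgr5 cells, and Clca3b, another gene of the stem cell list, at 6.01. Cd24a, a surface protein gene high in Paneth cells, stood at 6.18 in Mki67-low and 1.53 in Mki67-high Lgr5 cells.

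Marker sums gave 10 of the 157 cells as carrying another cell type's transcripts above a set share, 5 with each suffix. These were the tuft marker cell, 5 cells with at least 0.5% goblet cell markers (4 of suffix 2 and 1 of suffix 1) and 6 with at least 1% Paneth cell markers (3 of each suffix), 2 of which were in both sets. No cell passed 0.5% for enteroendocrine, lymphocyte, B cell, plasma or myeloid markers. The tuft cell markers show what such cells do to a small class. Of 8 measured tuft genes, 6 were apart with higher levels in Mki67-low than in Mki67-high Lgr5 cells, beside 4.65% of all genes. Their median was 1.28, and without the cells that passed a marker share in either class that median was -0.73. Whether these are doublets, cells with free RNA or precursors was not tested.

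The members of the 2 suffixes were then set side by side. Of 3111 genes with at least 100 UMIs, 71 (2.28%) were apart with higher levels in suffix 2 than in suffix 1 and 79 (2.54%) with lower levels. The stem cell genes had a median of 0.15, and a thinned cell held a median of 146.5 UMIs of the list in suffix 2 and 121 UMIs in suffix 1. Lgr5 had 435 CPM in suffix 2 and 440 CPM in suffix 1, a ratio of 0.987 (0.849 to 1.15), Ascl2 stood at 0.983, Smoc2 at 1.10 and Igfbp4 at 1.14. Of 24 stem cell genes 2 were apart, both with higher levels in suffix 2, beside 3.25% of genes with at least 20 UMIs. Msi1, an RNA-binding protein gene, had 148 CPM in suffix 2 and 95.8 CPM in suffix 1, and Tnfrsf19 had 44.7 CPM in suffix 2 and 24.2 CPM in suffix 1. Olfm4 had 14155 CPM in suffix 2 and 10806 CPM in suffix 1, a ratio of 1.31, and Clca3b had thinned medians of 31 UMIs in suffix 2 and 21 UMIs in suffix 1. In all these values 1 pool of animals stands against another, so a difference between animals, dissections or libraries cannot be told apart from one between the groups.

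Antigen presentation and interferon response genes were higher in suffix 2. Of 7 MHC class II genes 6 were apart, with a median of 1.29, beside 3.25% of genes with at least 20 UMIs. Cd74 had 556 CPM in suffix 2 and 227 CPM in suffix 1, a ratio of 2.45 (2.07 to 2.92). H2-Eb1 had 165 CPM in suffix 2 and 54.0 CPM in suffix 1, and H2-Aa had 93.7 CPM in suffix 2 and 36.3 CPM in suffix 1. Summed over the list, a thinned cell held a median of 5 UMIs in suffix 2 and 2 UMIs in suffix 1, and 2 of 68 cells of suffix 2 and 20 of 89 cells of suffix 1 held none. In lymphocytes thinned to 2000 UMIs, Cd74 had a UMI in 5.03% of cells, against 43.9% of Mki67-low Lgr5 cells at the same depth. MHC genes share sequence among themselves, and the split of UMIs between them is uncertain.

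Interferon response genes were apart with higher levels in suffix 2 for 10 of 17 measured, with a median of 0.77. Of 10 measured MHC class I genes 5 were apart, with a median of 0.58. The share over all genes with at least 20 UMIs was 3.25%. Oasl2, a member of the 2′-5′ oligoadenylate synthetase family (chr5:114896936-114912234, plus strand), had 145 CPM in suffix 2 and 41.8 CPM in suffix 1, a ratio of 3.48 (2.38 to 5.18). After thinning, 32 of 68 cells of suffix 2 and 14 of 89 cells of suffix 1 had an Oasl2 UMI. Outside the list, the ubiquitin ligase gene Rnf213 had 112 CPM in suffix 2 and 23.1 CPM in suffix 1, and Ifi27l2b had 189 CPM in suffix 2 and 65.0 CPM in suffix 1. Ifi44 had 44 UMIs in suffix 2 and 0 UMIs in suffix 1. Among the transcription factors of the pathway, Irf7 had 28.0 CPM in suffix 2 and 6.61 CPM in suffix 1, and Stat2 had 39.1 and 12.1 CPM in the same order. The antiviral genes Bst2, at 29.4 CPM in suffix 2 and 7.71 CPM in suffix 1, and Oas1a, at 32.2 CPM in suffix 2 and 7.71 CPM in suffix 1, were apart too, and Oas1a shares sequence with its gene family. Ceacam10, a small member of the carcinoembryonic antigen family (chr7:24777206-24784657, plus strand), had 220 CPM in suffix 2 and 44.0 CPM in suffix 1, a ratio of 4.98 (3.50 to 7.24).

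The promoters of Stat2, Oas1a and Bst2 are shown because these 3, of the 8 apart interferon genes with a promoter in the RefSeq table, held the letters of an interferon-stimulated response element (GAAANNGAAA, both strands). The letters were in 12 of 24 promoters of the whole list and in 3.04% of all 27025 promoters. Each line gives the 250 bases before the gene's start (GRCm38.p6, 5′ to 3′ on the gene's strand, from RefSeq) with matches in capitals. Stat2 lies at chr10:128270248-128270497 on the plus strand, Oas1a at chr5:120907526-120907775 on the minus strand and Bst2 at chr8:71537473-71537722 on the minus strand. Oas1a and Bst2 each have 2 overlapping matches, between 20 and 5 bases and between 130 and 115 bases before the start. The match of Stat2 is on the opposite strand, 222 to 213 bases before the start.
Stat2: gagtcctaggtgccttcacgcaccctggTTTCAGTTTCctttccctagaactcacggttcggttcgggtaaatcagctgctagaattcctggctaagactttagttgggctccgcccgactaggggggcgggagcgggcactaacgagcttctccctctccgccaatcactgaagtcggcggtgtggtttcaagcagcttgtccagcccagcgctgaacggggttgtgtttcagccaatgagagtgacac
Oas1a: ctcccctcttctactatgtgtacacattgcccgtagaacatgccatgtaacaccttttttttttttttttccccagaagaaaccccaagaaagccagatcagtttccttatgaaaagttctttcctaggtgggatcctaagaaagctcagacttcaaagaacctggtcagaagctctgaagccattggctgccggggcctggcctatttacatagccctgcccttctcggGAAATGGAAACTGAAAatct
Bst2: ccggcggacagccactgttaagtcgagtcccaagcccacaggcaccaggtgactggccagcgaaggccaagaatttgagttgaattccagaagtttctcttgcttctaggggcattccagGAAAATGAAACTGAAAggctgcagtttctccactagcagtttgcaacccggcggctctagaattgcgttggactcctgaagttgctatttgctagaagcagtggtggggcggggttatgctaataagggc

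Immediate early genes, which are transcribed within minutes of a stimulus, were lower in suffix 2. Of 21 measured, 12 were apart with lower levels, beside 3.14% of genes with at least 20 UMIs, with a median of -0.73. A thinned cell held a median of 17 UMIs of the list in suffix 2 and 31 UMIs in suffix 1. Fosb, an AP-1 subunit (chr7:19302696-19310051, minus strand), had 151 CPM in suffix 2 and 353 CPM in suffix 1, a ratio of 0.427 (0.340 to 0.533). After thinning, 23 of 68 cells of suffix 2 and 58 of 89 cells of suffix 1 had a Fosb UMI. Fos had 843 CPM in suffix 2 and 1274 CPM in suffix 1, with thinned medians of 2 and 5 UMIs in the same order. Atf3, a stress-induced transcription factor, stood at 0.407, Hbegf, a ligand of the epidermal growth factor receptor, at 0.386, Klf10 at 0.475, Dusp1, a phosphatase for MAP kinases, at 0.485, and Egr1 at 0.644. Zfp36, which promotes decay of short-lived transcripts, had 270 CPM in suffix 2 and 462 CPM in suffix 1, and Tob1, an antiproliferative gene, had 140 CPM in suffix 2 and 246 CPM in suffix 1.

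The promoter of Zfp36 is shown because it alone, of 20 immediate early genes with a promoter in the RefSeq table, held a CArG box, the motif of serum response factor, searched by its usual consensus on both strands. That motif was in 1.40% of all 27025 promoters. The 250 bases before the start (GRCm38.p6, chr7:28379229-28379478, minus strand, 5′ to 3′ on that strand, from RefSeq) carry it in capitals, 58 to 49 bases before the start.
Zfp36: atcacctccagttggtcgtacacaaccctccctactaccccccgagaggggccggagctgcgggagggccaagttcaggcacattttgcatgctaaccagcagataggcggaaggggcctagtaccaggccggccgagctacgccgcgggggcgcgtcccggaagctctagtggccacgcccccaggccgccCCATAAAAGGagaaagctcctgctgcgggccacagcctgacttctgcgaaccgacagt

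The same ratios in the 544 Mki67-high Lgr5 cells show which of these values were shared. These cells come from the same 2 pools, so they are not independent of the Mki67-low cells. There 2.02% of 8456 genes with at least 100 UMIs were apart with higher levels in suffix 2 and 1.01% with lower levels, and 3.11% and 1.47% of genes with at least 20 UMIs. Interferon response genes were apart with higher levels for 24 of 27 measured (median 1.59), MHC class II for 7 of 7 (1.41) and immediate early genes with lower levels for 14 of 24 (-0.71). Cd74 stood at 2.66, Oasl2 at 4.51, Ceacam10 at 2.66 and Fosb at 0.392. The MHC class II and immediate early medians were thus close in the 2 classes, and over the 17 interferon genes measured in both classes the median was 0.77 in Mki67-low and 1.55 in Mki67-high cells. These differences were not tested.

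**Figure D4:**
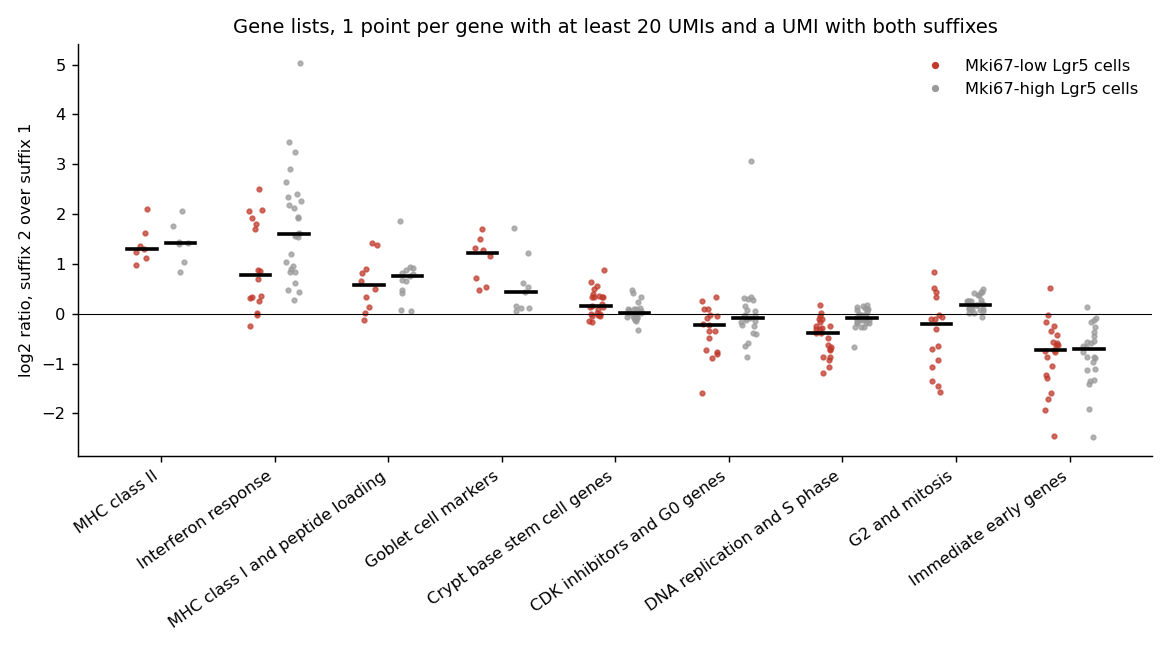
Log2 ratio of CPM, suffix 2 over suffix 1, for 9 gene lists in Mki67-low Lgr5 cells (red, left) and Mki67-high Lgr5 cells (grey, right), 1 point per gene (jittered) and a bar at the median of the points drawn. MHC class II genes lie above 0 and most immediate early genes below 0 in both classes, and the replication list lies lower in the Mki67-low cells.

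Replication genes were lower in suffix 2 among Mki67-low Lgr5 cells. Of 23 measured genes 8 were apart with lower levels, beside 3.14% of genes with at least 20 UMIs, with a median of -0.38. Among Mki67-high Lgr5 cells 1 of 29 was apart and the median was -0.08. There 3.11% of genes with at least 20 UMIs were apart with higher and 1.47% with lower levels. In Mki67-low cells Mcm4 had 75.5 CPM in suffix 2 and 138 CPM in suffix 1, a ratio of 0.549 that stood at 0.895 in Mki67-high cells. Mcm3 had 61.5 CPM in suffix 2 and 102 CPM in suffix 1, and Pcna 162 CPM in suffix 2 and 259 CPM in suffix 1. Per thinned cell the list had a median of 6 UMIs in suffix 2 and 10 UMIs in suffix 1. The median of Mki67-high cells, 11 UMIs, was reached by 23 of 68 cells (33.8%) in suffix 2 and by 41 of 89 cells (46.1%) in suffix 1. The cells of suffix 1 thus carried more replication transcripts, and the part of this in other suffix ratios was not tested. Of 17 measured genes of the inhibitor and G0 list, 4 were apart with lower levels in suffix 2, beside the same 3.14%. Among them was Cdkn1a, with 6 UMIs in suffix 2 and 23 UMIs in suffix 1.

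Some genes differed between suffixes in Mki67-low Lgr5 cells and less in Mki67-high ones. Ctnnb1, which encodes beta-catenin, had 74.1 CPM in suffix 2 and 42.9 CPM in suffix 1, a ratio of 1.73 that was 0.862 in Mki67-high cells. Dll1 had 61.5 CPM in suffix 2 and 24.2 CPM in suffix 1, a ratio of 2.54 that was 1.29 there. Adra2a had 65.7 CPM in suffix 2 and 112 CPM in suffix 1, a ratio of 0.585 that was 0.989 there. Ccn1 had 102 CPM in suffix 2 and 192 CPM in suffix 1, a ratio of 0.533 that was 0.880 there. The histone gene H2bc4, whose family members share sequence, stood at 0.480 in Mki67-low and 0.949 in Mki67-high cells. These differences of ratios were not tested.

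Goblet and Paneth cell transcripts were higher in suffix 2 as well. Of 8 measured goblet cell markers 6 were apart (median 1.22), and of 10 Paneth cell markers 6 were apart (0.92). Of all genes with at least 20 UMIs, 3.25% were apart with higher levels in suffix 2. Spink4 had 372 CPM in suffix 2 and 149 CPM in suffix 1, Fcgbp 464 and 207 CPM in the same order, Rnase1 175 and 62.8 CPM, and the defensin gene Defa17 316 and 146 CPM. Without the 10 cells above a marker share, 7 of 8 goblet markers (median 0.96) and 4 of 10 Paneth markers (0.43) were apart. Lymphocytes, which should lack these transcripts, had a suffix ratio of 1.94 (1.21 to 3.16) for Spink4, 1.72 for Fcgbp and 2.997 for the mucin gene Muc2. At 2000 UMIs a Spink4 UMI was found in 35.7% of Mki67-low Lgr5 cells and 22.1% of lymphocytes, and a Clca1 UMI in 10.8% and 11.6%, so Clca1 stood at its background. Defa17 and its relatives share sequence, which makes their single values uncertain. How much of the goblet and Paneth cell difference came from free RNA was not tested.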

How the data were processed

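Single-cell libraries of duodenal crypts were made from pooled wild-type mice of the ES and NT groups. The deposited matrix holds raw UMI counts for 31253 features, 31205 symbols once 43 shared symbols were summed, and 12756 barcodes. The authors used Cell Ranger 2.1.1 and mm10, per the submitters' processing notes. Its barcodes are 27 bases long. Steps from there ran in Python 3.11.15 with numpy 2.4.6, scipy 1.17.1, pandas 2.3.3 and matplotlib 3.10.9. Only the rule for genes apart was tested on simulated data, as Poisson counts without the further spread between cells. Members followed the rule given above. They and the 41 gene lists (624 of 627 genes found) were chosen with earlier results of these data known. UMIs were summed per class and scaled to CPM. Ratios carry exact conditional Poisson 95% intervals, and shares Clopper-Pearson 95% intervals, both for counting error only. Genes needed 100 UMIs over both classes, or 20 within lists. Random thinning to 5000 UMIs used seed 1. Lymphocytes had at least 2 Cd3d, Cd3e and Cd3g UMIs, no Epcam and at least 2000 UMIs. No doublet caller was run. Genes were named by the interval bound nearest to 1 among genes apart, at most 10 higher and 10 lower ones (5 lower ones against Lgr5-zero cells and other barcodes). Against Mki67-high cells they also had to be apart in the same direction in both suffixes. The 15 most variable genes and the leading or apart genes of the lists were added. The alternatives changed the Lgr5, Olfm4, mitochondrial and cell cycle limits, the depth range, the gene filter, the fold and the scaling. The Paneth, enteroendocrine and gene number limits were not varied. With 1 pool per group there was no test across samples. Values of a few genes are not reported here.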

Additional observations from a re-analysis of the deposited data

Results flagged for a closer look

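For 7 genes the ratio of Mki67-low over Mki67-high Lgr5 cells pointed in opposite directions in the 2 suffixes. Ccl9, a chemokine gene, stood at 2.28 in suffix 2 and 0.458 in suffix 1. Mmp7, a protease of Paneth cells, stood at 2.42 in suffix 2 and 0.505 in suffix 1. The guanylin genes Guca2a, at 1.69 in suffix 2 and 0.623 in suffix 1, and Guca2b, at 1.68 in suffix 2 and 0.598 in suffix 1, went the same way. Igf1r, the receptor of insulin-like growth factor 1, stood at 1.62 in suffix 2 and 0.662 in suffix 1. The interferon-induced gene Ifi27 stood at 0.504 in suffix 2 and 1.74 in suffix 1, and Vps39, a vacuolar sorting gene, at 0.442 in suffix 2 and 1.87 in suffix 1. The difference between the suffixes was not tested for any of them.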

How the results depend on the processing

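Of 1543 list medians under alternatives, 1442 stayed within 0.2 (log2) of the reported value and 88 moved further. Another 13 changed sign from a reported value of at least 0.2 and are called reversed. Of the 1442 and 88, a sign change from a value nearer 0 was seen for 80, among them, against Mki67-high cells, the enterocyte list (0.42 under the thinned rule) and the enteroendocrine (0.25) and goblet (0.24) lists at 5000 to 15000 UMIs. Of single genes 2672 stayed inside the reported interval, 159 moved and 11 reversed. With Mki67 and Top2a both at 0 there were 88 cells, and 137 genes were apart with higher and 49 with lower levels against Lgr5-zero cells, and 45 and 37 between suffixes. Of these genes 78 and 12, and 18 and 14, were among those reported above. Thinning every cell gave 195 and 371 genes against Mki67-high cells, 131 higher ones against Lgr5-zero cells, and 26 and 31 between suffixes. In the same order 99 and 266, 79, and 15 and 15 of them were among those reported above. A minimum of 20 UMIs gave 513 higher genes against Mki67-high cells, 537 and 250 against Lgr5-zero cells, and 267 and 258 between suffixes. A 2-fold limit gave 43 and 305, 61 and 7, and 19 and 6 genes for the 3 comparisons. The cause was not tested for these, beyond the fewer cells, UMIs or genes that each setting leaves.

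Cells of 5000 to 15000 UMIs (154 and 311 genes against Mki67-high cells) were added as a setting after seeing the data. So were the rule applied after thinning (190 higher) and leaving out cells above a marker share of another type. Class membership changed under the thinned rule. It gave 207 Mki67-low Lgr5 cells, 135 of them among the 157 reported above, and 20 of the 157 became Lgr5-zero cells. There were then 271 Mki67-high Lgr5 cells instead of 544, and 213 Lgr5-zero cells instead of 78. Reversed against Mki67-high cells were the tuft list (-0.25 with at least 2 Lgr5 UMIs, -0.99 with Olfm4 at 0.6%, -0.73 without other types) and, under the thinned rule, Creb3l1 (1.498) and Sis (2.101). Reversed against Lgr5-zero cells with Olfm4 at 0.6% were the goblet list (0.44), Agr2 (1.48), Guca2a (1.43), Spink4 (1.51) and Tff3 (1.52). With Mki67 and Top2a at 0 these were the goblet (0.0688), glucocorticoid (-0.0368) and enterocyte (0.0498) lists, Fcgbp (1.01), Guca2a (1.19), Spink4 (1.03) and Tff3 (1.22). Without other types they were the tuft list (-2.88) and Tff3 (1.02), and under the thinned rule the secretory (-0.0738), tuft (-0.11) and enterocyte (0.39) lists. Between suffixes the Notch list (-0.12 with Mki67 and Top2a at 0) and the G2 and mitosis list (0.26 under the thinned rule) reversed. No paired analysis was possible because each group is 1 pool and no suffix is tied to a group. Shallow cells, the lack of replicates and free RNA limit all values.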
